A study of Mus musculus with 17 samples.

Results

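The 10 glutathione S-transferases described here are Gsta2, Gsta3 and Gsta4 of the alpha class, Gstm1, Gstm2, Gstm3 and Gstm6 of the mu class, Gstp1 of the pi class, and Gstt1 and Gstt3 of the theta class. They were taken by gene symbol from a list of the family drawn up with earlier results of these data known, and are read by 14 probes of an Agilent oligonucleotide array, out of 19358 genes tested. Gsta3, Gstm1, Gstm6 and Gstp1 have 2 probes each and the others 1. The arrays held liver RNA of 17 male mice, 1 array per mouse, in 4 groups: chow (n = 4), 1B (n = 4), HFD (n = 4), and HFD+1B (n = 5). The chow and HFD mice were on a chow or a high-fat diet for 3 months and received a gavage of maltose, the 1B mice were on chow and received a single gavage of ethanol at 5 g/kg, and the HFD+1B mice received the same ethanol gavage after 3 months of the high-fat diet. The liver was removed 9 hours later in every mouse. The sample labels give the strain as C57BL/6N and the study's methods name C57BL/6J, and the age of the mice is not given in the labels. The arrays were hybridized with cDNA of the liver in the dye Cy5 and with cDNA of a commercial assortment of mouse RNA, the same for all mice, in the dye Cy3, and each value below is the log2 of the liver signal over this common reference. A value of 0 therefore means a signal equal to that of the reference, a difference of 1 between groups is a 2-fold change, and values of different probes are not comparable in level.

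Glutathione S-transferases join the tripeptide glutathione to electrophiles such as lipid peroxidation products, drugs, and carcinogens, which makes them water soluble and ready for export. The alpha, mu, pi, and theta classes differ in substrate preference and are encoded by gene clusters, and the liver is among the organs richest in these enzymes. Their transcription is known to respond to the oxidant sensor NRF2 and to the nuclear receptors CAR and PXR, and ethanol metabolism is a known source of the aldehydes and oxidants that they handle.

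The sequences of a few probes are shown, because paralogs of this family are alike and the probe decides which transcript is read. They are both probes of Gstp1, which read 2 separate stretches of 60 bases, the probe of Gsta4, and the brighter probe of Gstm6, whose other probe gave a different result, each 5′ to 3′.
Gstp1, brighter probe: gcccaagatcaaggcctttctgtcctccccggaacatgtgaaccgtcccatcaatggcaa
Gstp1, dimmer probe: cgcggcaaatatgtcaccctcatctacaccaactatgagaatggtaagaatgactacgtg
Gsta4: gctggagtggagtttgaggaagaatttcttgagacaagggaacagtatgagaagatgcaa
Gstm6, brighter probe: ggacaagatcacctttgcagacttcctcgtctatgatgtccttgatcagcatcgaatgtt
Among the 38 probes of 26 glutathione S-transferase and related genes in the table, 1 pair of probes of different genes overlapped by at least 20 bases with at most 20% mismatches. It was the pair of Gsta2 and Gsta1, whose probes share a stretch of 28 bases with 1 mismatch, in capitals below.
Gsta1: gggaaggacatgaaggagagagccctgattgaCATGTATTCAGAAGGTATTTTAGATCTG
Gsta2: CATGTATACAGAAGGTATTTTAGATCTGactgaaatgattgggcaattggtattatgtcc
The rest of the 2 probes lies on opposite sides of that stretch. The probes were compared only with each other. Whether a probe also reads the transcript of a paralog was not tested for any member. Of the 14 member probes 2, 1 of Gstm1 and the probe of Gstm2, hold the letters of the polyadenylation signal AATAAA. Gstp2, a close paralog next to Gstp1 in the RefSeq gene order, has no probe of its own here, and how far its transcript adds to the Gstp1 signal was not tested.

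All 14 member probes were well above background on all 17 arrays, and none of their spots was saturated. Of the 238 values of the members, 4 were missing because the scanner software had marked the spot as an outlier: Gstm2 in chow mouse 1, the brighter Gstm1 probe in HFD mice 1 and 4, and the dimmer Gstp1 probe in chow mouse 1. The median Cy5 intensity of an array ranged from 99 to 138 for chow, from 69 to 134 for 1B, from 63 to 98 for HFD, and from 90 to 158 for HFD+1B. The HFD arrays stood apart in the ribosomal RNA probes, with a mean log2 ratio of 3 probes of -3.55 to -1.88, against -0.94 to 1.17 on the other 13 arrays. HFD mouse 3 stood apart from the other HFD mice in the acute phase gene Lcn2, at 0.71 against -3.25 to -2.99, and the HFD results that moved without it are given both ways. 1B mouse 3 stood apart from the other 1B mice in the other direction, at -3.94 against -1.64 to -0.53 for Lcn2 and at -3.22 against 1.19 to 2.57 for Saa1, another acute phase gene. Their part in the results of the members was not tested beyond the fits without them. Of the markers of hepatocytes on the array, 11 of 11 were well above background on all arrays.

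For each gene with more than 1 probe the probe brightest in Cy5 was used, and a call required that the adjusted p of a limma fit over all probes was at most 0.05. Ethanol on a chow diet lowered 2 members and raised 0. Both were of the alpha class, Gsta2 and Gsta3. The same call was made for 2.04% of all genes tested in the direction lower and for 2.09% in the direction higher. The high-fat diet with maltose lowered 1 member, Gstp1, and raised 0, against 6.48% lower and 4.50% higher of all genes. The high-fat diet with ethanol, compared with chow, raised 2 members, Gstm2 and Gstm3, and lowered 3, Gsta3, Gsta4, and Gstp1, against 8.89% higher and 7.41% lower of all genes. The median difference of the 10 members was -0.03, -0.18, and -0.09 in these 3 comparisons, and that of all genes was between 0.000289 and 0.00783. The 3 comparisons share the 4 chow mice and are not independent.

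**Figure D1:**
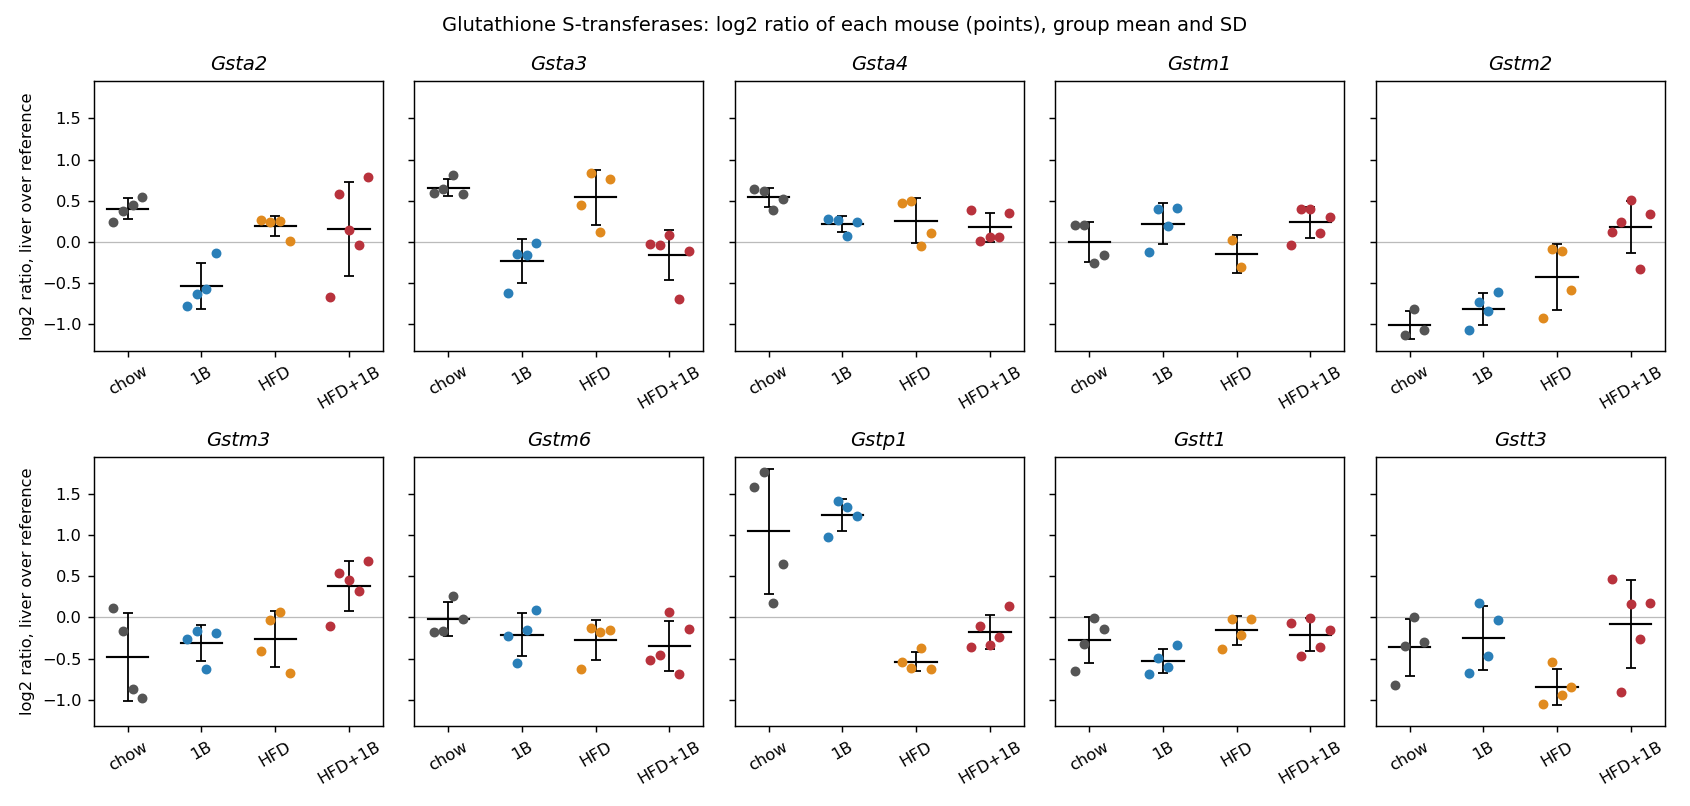
Log2 ratio of liver over reference (vertical axis) for the 10 glutathione S-transferases in chow, 1B, HFD, and HFD+1B, where each point is 1 mouse, the horizontal line the group mean, and the bar the SD. Gsta3 lay below all chow mice in the 4 1B and 5 HFD+1B mice, Gstp1 below all chow mice in the 4 HFD and 5 HFD+1B mice, and Gstm2 above all measured chow mice in the 5 HFD+1B mice.

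Gsta3, an alpha class enzyme that is abundant in mouse liver and detoxifies aflatoxin epoxide, was lower after ethanol on both diets. Its log2 ratios were 0.59, 0.64, 0.81, and 0.59 in the 4 chow mice, and -0.62, -0.15, -0.16, and -0.015 in the 4 1B mice. In HFD they were 0.44, 0.84, 0.11, and 0.76, and in HFD+1B -0.03, -0.04, 0.08, -0.69, and -0.12. All mice given ethanol lay below all mice given maltose, on either diet. The difference was -0.89 ± 0.18 (SE) for 1B minus chow (adjusted p = 0.00654), -0.82 ± 0.17 for HFD+1B minus chow (adjusted p = 0.00237), and -0.70 ± 0.17 for HFD+1B minus HFD (adjusted p = 0.00779), which are folds of 1.86, 1.76, and 1.62. HFD minus chow was -0.12 with a 95% confidence interval of -0.49 to 0.25, and was 0.02 without HFD mouse 3. The ethanol effect on the high-fat diet minus that on chow was 0.20 (confidence interval -0.31 to 0.70, adjusted p = 0.71). On the slides that held mice of both groups, 1B lay below chow on 3 of 3 slides (-1.21 to -0.79), HFD+1B below chow on 4 of 4 (-0.86 to -0.50), and HFD+1B below HFD on 4 of 4 (-1.46 to -0.03). Without HFD mouse 3 the difference of HFD+1B and HFD was -0.84 (adjusted p = 0.00317). With median centring of the arrays in place of loess it was -0.44 (adjusted p = 0.136). The call of 1B minus chow was lost when Cy5 was used alone, without the reference (-0.90, adjusted p = 0.0662), and remained without 1B mouse 3 (-0.92, adjusted p = 0.0147). The dimmer Gsta3 probe gave -0.73 for 1B minus chow (adjusted p = 0.0195), -0.74 for HFD+1B minus chow (adjusted p = 0.00382), and -0.92 for HFD+1B minus HFD (adjusted p = 0.000955). In a liver sample a smaller share of the cells that express a gene and less RNA per cell cannot be told apart.

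Gsta2, whose product acts on lipid hydroperoxides and on electrophiles, was lower in 1B than in chow. Its log2 ratios were 0.24, 0.37, 0.45, and 0.55 in chow and -0.79, -0.64, -0.57, and -0.13 in 1B, so that the groups did not overlap. The difference was -0.94 ± 0.22 (SE, adjusted p = 0.0234), a fold of 1.92, and within 3 of 3 slides it was -1.03 to -1.01. The HFD mice were at 0.27, 0.23, 0.26, and 0.01, and the HFD+1B mice at -0.67, 0.58, 0.14, -0.04, and 0.79, which spanned those of the other 3 groups except the lowest 1B mouse. HFD+1B minus HFD was -0.03 with a confidence interval of -0.48 to 0.41. HFD+1B exceeded 1B by 0.69 ± 0.21 (adjusted p = 0.0464), with 4 of 5 HFD+1B mice above all 1B mice. The ethanol effect on the high-fat diet minus that on chow was 0.90 (confidence interval 0.25 to 1.55), with an unadjusted p of 0.00919 that did not pass over all probes (limma adjusted p = 0.106). The call of 1B against chow was lost without chow mouse 3 (-0.92, adjusted p = 0.0686), chow mouse 4 (-0.89, 0.0817), 1B mouse 1 (-0.85, 0.0886), 1B mouse 2 (-0.90, 0.0673), or 1B mouse 3 (-0.92, 0.0562). The call of HFD+1B against 1B remained in 2 of the 17 fits that left out a mouse, with an adjusted p of up to 0.141, and was lost with the replicate number as a block (0.54, adjusted p = 0.0723), with the authors' table of log2 ratios (0.85, adjusted p = 0.0616), and without a filter on dim probes (0.69, adjusted p = 0.0624). HFD+1B minus HFD was -0.01 without HFD mouse 3.

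Gsta4, the alpha class enzyme that clears 4-hydroxynonenal, was read by a probe with 10 spots on each array, whose SD within an array was 0.05 to 0.20. The chow mice had log2 ratios of 0.64, 0.62, 0.39, and 0.52, and the 1B mice had 0.28, 0.27, 0.07, and 0.24. The HFD mice had 0.47, 0.50, -0.05, and 0.11, and the HFD+1B mice 0.39, 0.01, 0.06, 0.06, and 0.36. The 4 1B mice lay below all chow mice, and 4 of 5 HFD+1B mice did so. HFD+1B minus chow was -0.37 ± 0.12 (SE, adjusted p = 0.046), a fold of 1.29, and was negative on 4 of 4 slides. 1B minus chow was -0.33 (confidence interval -0.59 to -0.06, adjusted p = 0.206) and HFD minus chow -0.29 (-0.55 to -0.02, adjusted p = 0.16), and neither passed. HFD minus chow was -0.18 (adjusted p = 0.434) without HFD mouse 3, and 1B minus chow was -0.28 (adjusted p = 0.392) without 1B mouse 3. The call remained in 6 of 17 fits without 1 mouse, where the highest adjusted p was 0.115, without chow mouse 2. With Cy5 alone it was lost, at -0.31 (adjusted p = 0.226).

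Gstm2 and Gstm3 of the mu class, whose enzymes conjugate epoxides and quinones among others, were higher in HFD+1B. They are next to each other in the RefSeq gene order, in a row of mu class genes that reads Gstm7, Gstm6, Gstm3, Gstm2, Gstm1, and Gstm4. The Gstm2 log2 ratios were -1.13, -0.81, and -1.07 in chow mice 2 to 4, and -1.07, -0.74, -0.84, and -0.61 in 1B. The HFD mice were at -0.93, -0.09, -0.11, and -0.59, and the HFD+1B mice at 0.12, 0.25, 0.51, -0.33, and 0.34. The 5 HFD+1B mice lay above all chow and 1B mice, and 4 of them above all HFD mice. HFD+1B minus chow was 1.18 ± 0.20 (SE, adjusted p = 5e-04), HFD+1B minus 1B was 0.99 ± 0.18 (adjusted p = 0.00205), and HFD+1B minus HFD was 0.61 ± 0.18 (adjusted p = 0.0272), which are folds of 2.27, 1.99, and 1.52. HFD minus chow was 0.58 (confidence interval 0.14 to 1.01, adjusted p = 0.0853) and 1B minus chow 0.19 (-0.24 to 0.62, adjusted p = 0.804). HFD minus chow passed in 4 of 32 alternatives. These were the slide as a block (0.77, adjusted p = 0.0291), the replicate number as a block, outlier spots kept, and the fit without HFD mouse 1. It was 0.47 (adjusted p = 0.225) without HFD mouse 3. HFD+1B lay above chow on 3 of 3 slides (1.06 to 1.58), above 1B on 4 of 4 (0.29 to 1.19), and above HFD on 4 of 4 (0.27 to 1.05). Without HFD mouse 3 HFD+1B minus HFD was 0.71 (adjusted p = 0.021), and its call was lost without HFD mouse 1 (0.44, adjusted p = 0.0884), HFD mouse 4 (0.55, 0.0826), HFD+1B mouse 2 (0.59, 0.053), or HFD+1B mouse 3 (0.52, 0.061). With Cy5 alone HFD+1B minus HFD was 0.39 (adjusted p = 0.384) and HFD+1B minus 1B 0.83 (adjusted p = 0.0928).

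Gstm3 varied more within chow, with log2 ratios of 0.12, -0.17, -0.87, and -0.98. The 1B mice were at -0.26, -0.16, -0.63, and -0.18, the HFD mice at -0.41, -0.03, 0.06, and -0.67, and the HFD+1B mice at -0.10, 0.54, 0.46, 0.32, and 0.69. Of the 5 HFD+1B mice 4 lay above all chow and all HFD mice, and all 5 lay above all 1B mice. HFD+1B minus chow was 0.86 ± 0.22 (SE, adjusted p = 0.0113), a fold of 1.81, but was -0.22 on 1 of the 4 slides that held both groups, and it was lost without chow mouse 3 (0.73, adjusted p = 0.0509) or chow mouse 4 (0.69, adjusted p = 0.0547). HFD+1B minus HFD was 0.64 ± 0.22 (adjusted p = 0.0477) and positive on 4 of 4 slides (0.31 to 0.99). This call remained in 8 of 17 fits without 1 mouse, where the highest adjusted p was 0.159, without HFD mouse 4. The difference was 0.75 (adjusted p = 0.0414) without HFD mouse 3. Among other alternatives, the call was lost with Cy5 alone (0.14, adjusted p = 0.807) and with the authors' table of log2 ratios (0.58, 0.102). It was also lost with the replicate number as a block (0.57, 0.0732). With Cy5 alone HFD+1B minus chow was 0.80 (adjusted p = 0.0857). HFD+1B minus 1B was 0.69 with an adjusted p of 0.0519, and 0.58 (adjusted p = 0.163) without 1B mouse 3.

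Gstm1 and Gstm6, the other mu class members, were called in none of the 6 comparisons with their brighter probe. Gstm1, an abundant mu class enzyme of the liver, had log2 ratios from -0.26 to 0.21 in chow and from -0.12 to 0.41 in 1B. The 2 HFD mice with a value were at -0.31 and 0.02, and the HFD+1B mice ranged from -0.04 to 0.40. The groups overlapped, with 4 of 5 HFD+1B mice above both HFD mice, and HFD+1B minus HFD was 0.38 (confidence interval 0.0025 to 0.75, adjusted p = 0.155). The dimmer Gstm1 probe, with a value in all 4 HFD mice, gave 0.38 (-0.01 to 0.77, adjusted p = 0.169). Without HFD mouse 3, which leaves 1 HFD value, the brighter probe gave 0.21 (adjusted p = 0.604). The brighter probe passed this comparison in 2 of 32 alternatives, with median centring, at 0.61, and with outlier spots kept. The probes of Gstm6 disagreed. The brighter probe, printed above, gave -0.32 for HFD+1B minus chow (confidence interval -0.66 to 0.01, adjusted p = 0.211). The dimmer probe, which has no accession in the table, gave 0.43 ± 0.12 (adjusted p = 0.0263), with no HFD+1B mouse below any chow mouse, and 0.48 ± 0.12 for HFD+1B minus HFD (adjusted p = 0.0129). No direction can be given for Gstm6.

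**Figure D2:**
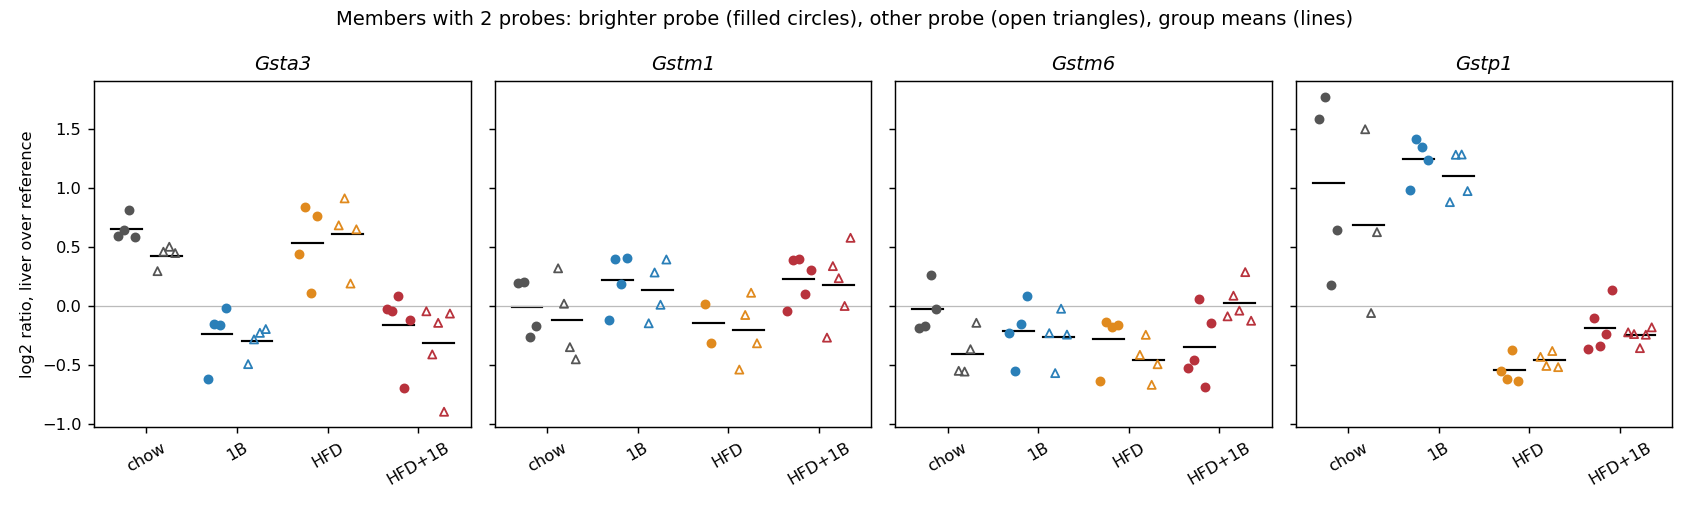
Log2 ratio of liver over reference (vertical axis) in each mouse for the 4 members with 2 probes, with the brighter probe as filled circles, the other probe as open triangles, and lines at the group means. The probes of Gstm1 and Gstp1 put the group means in the same order and those of Gsta3 put the maltose groups above the ethanol groups, whereas for Gstm6 the HFD+1B group had the lowest mean with the brighter probe (-0.35) and the highest with the other (0.03).

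Gstp1, the pi class enzyme, known for its high level in the liver of male mice, was lower on the high-fat diet with either gavage. The log2 ratios were 1.58, 1.77, 0.18, and 0.65 in chow and 0.98, 1.42, 1.35, and 1.24 in 1B. The HFD mice were at -0.54, -0.61, -0.37, and -0.63, and the HFD+1B mice at -0.36, -0.10, -0.34, -0.24, and 0.14. All 9 mice on the high-fat diet lay below all 8 mice on chow, and the chow mice ranged from 0.18 to 1.77. HFD minus chow was -1.59 ± 0.25 (SE, adjusted p = 0.000895), HFD+1B minus chow was -1.23 ± 0.24 (adjusted p = 0.00148), and HFD+1B minus 1B was -1.43 ± 0.24 (adjusted p = 0.000862), which are folds of 3.00, 2.34, and 2.69. The 5 HFD+1B mice lay above the 4 HFD mice, but HFD+1B minus HFD was 0.36 (confidence interval -0.14 to 0.86) and did not pass (adjusted p = 0.318), and 1B minus chow was 0.20 (-0.32 to 0.72, adjusted p = 0.841). Within slides, HFD lay below chow on 3 of 3 (-2.39 to -1.02), HFD+1B below chow on 4 of 4 (-1.95 to -0.28), and HFD+1B below 1B on 4 of 4 (-1.47 to -1.28). The dimmer Gstp1 probe gave -1.15 for HFD minus chow (adjusted p = 0.00528), -0.94 for HFD+1B minus chow (adjusted p = 0.00754), and -1.35 for HFD+1B minus 1B (adjusted p = 0.000471). Without HFD mouse 3 HFD minus chow was -1.64 (adjusted p = 0.00245). The calls of HFD and HFD+1B against chow remained in 17 of 17 fits without 1 mouse, at -1.88 to -1.34 and -1.52 to -0.98. Of the 3 ribosomal RNA probes 3 were lower in HFD than in chow, and 0 were called in HFD+1B minus chow or HFD+1B minus 1B. Their part in the Gstp1 results was not tested.

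Of the theta class, Gstt1, which acts on small halogenated compounds, had log2 ratios from -0.65 to -0.0029 on chow with maltose and from -0.68 to -0.34 with ethanol. The HFD mice ranged from -0.38 to -0.01 and the HFD+1B mice from -0.47 to -0.0024. These ranges overlapped, and Gstt1 was called in 0 of the 6 comparisons. Its neighbor Gstt3 was lowest in HFD. The Gstt3 values were -1.06, -0.54, -0.95, and -0.85 in the HFD mice and 0.46, -0.91, 0.17, -0.27, and 0.17 in the HFD+1B mice, and 4 of the 5 HFD+1B mice lay above all HFD mice. In chow they were -0.82 to 0.0038 and in 1B -0.67 to 0.18. HFD+1B minus HFD was 0.77 ± 0.24 (SE, adjusted p = 0.0327), a fold of 1.71, and was positive on 4 of 4 slides (0.58 to 1.52). HFD minus chow was -0.48 (confidence interval -1.01 to 0.05, adjusted p = 0.241) and HFD+1B minus chow 0.29 (-0.21 to 0.79, adjusted p = 0.508). The call was lost without HFD mouse 1 (0.70, adjusted p = 0.0777), HFD mouse 3 (0.74, 0.0789), HFD mouse 4 (0.77, 0.071), HFD+1B mouse 1 (0.64, 0.0792), HFD+1B mouse 3 (0.71, 0.0646), or HFD+1B mouse 5 (0.71, 0.0592). The 3 ribosomal RNA probes rose from HFD to HFD+1B by a median of 3.48, beside this and the other HFD+1B minus HFD results, and their part in them was not tested.

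The direct test of ethanol on the high-fat diet gave 4 members called, Gstm2, Gstm3, and Gstt3 higher and Gsta3 lower, against 11.0% of all genes higher and 8.39% lower. HFD+1B minus 1B, which compares the diets after ethanol, gave Gsta2 and Gstm2 higher and Gstp1 lower, against 6.28% higher and 5.16% lower of all genes. The interaction, the ethanol effect on the high-fat diet minus that on chow, was called for 0 of 10 members in limma, where 2.67% of all genes were called higher and 1.72% lower. Of the members 1, Gsta2, had an unadjusted p under 0.05 in the interaction. When a 2-fold change with an unadjusted p of at most 0.05 was required instead, the members called were 0 in 1B minus chow, Gstp1 in HFD minus chow, Gstm2 and Gstp1 in HFD+1B minus chow, 0 in HFD+1B minus HFD, Gstp1 in HFD+1B minus 1B, and 0 in the interaction. The shares of all genes under that rule were 1.06%, 1.94%, 3.03%, 2.11%, 1.91%, and 2.25% in the same order.

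**Figure D3:**
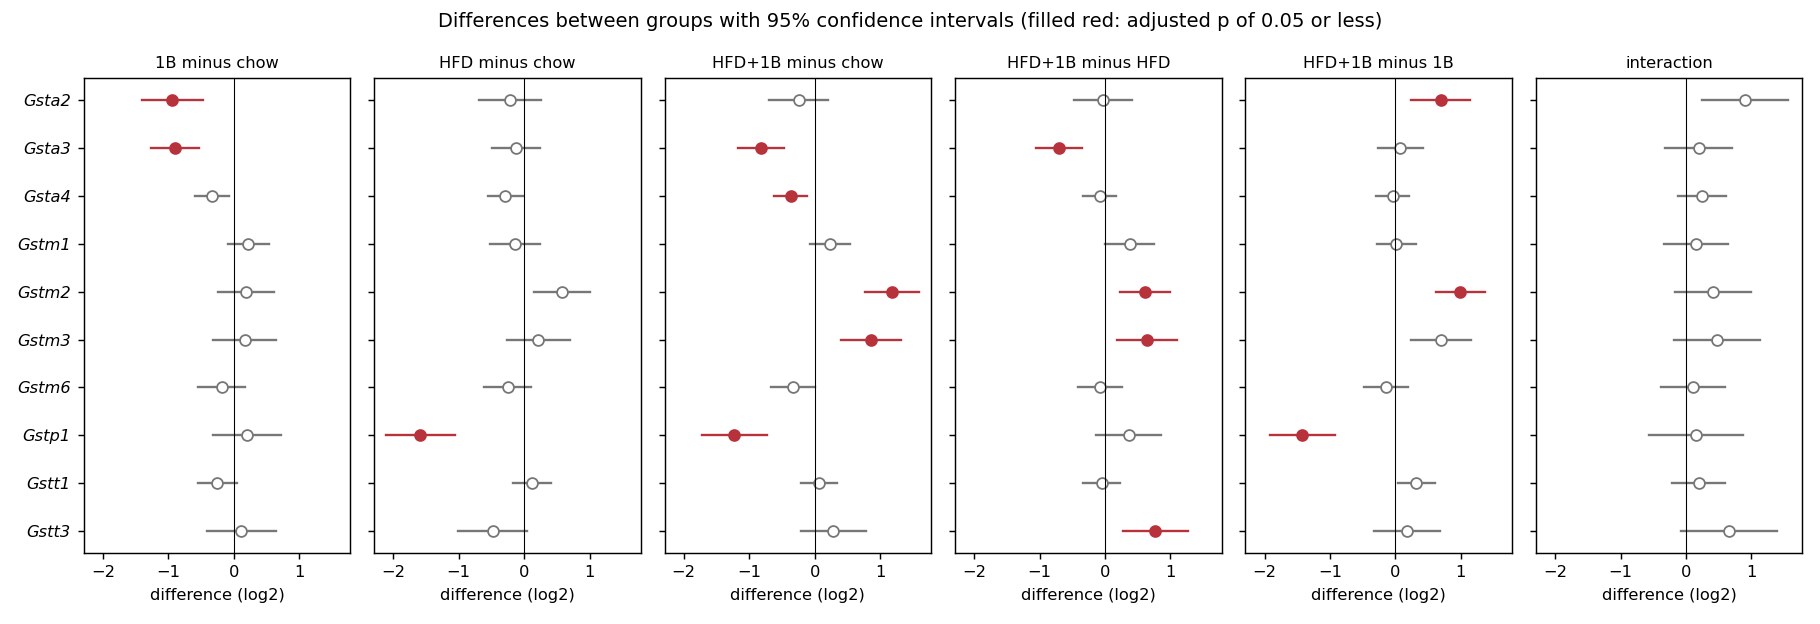
Difference of each comparison (horizontal axis, log2) with its 95% confidence interval for the 10 members, where filled red points passed an adjusted p of 0.05 and open grey points did not. Gstp1 in HFD minus chow (-1.59) is the difference farthest from 0, and no member passed in the interaction.

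Genes of the same family that are not members were taken from a list of 19, of which 16 were measured. After ethanol on chow 3 of 16 were lower and 0 higher, against 2.04% lower and 2.09% higher of all genes. In HFD+1B minus chow 3 were lower and 2 higher, against 7.41% lower and 8.89% higher of all genes. Gsta1, the alpha class paralog whose probe overlaps that of Gsta2, was lower in 1B minus chow (-0.69, adjusted p = 0.00785), HFD+1B minus chow (-0.44, adjusted p = 0.0296), and HFD+1B minus HFD (-0.48, adjusted p = 0.0171). Whereas all 5 HFD+1B mice lay below all chow mice for Gsta1, 2 of 5 lay above all chow mice for Gsta2. Gstt2, a theta class enzyme, was lower than chow in 1B (-1.10, adjusted p = 0.000498) and HFD+1B (-1.03, adjusted p = 0.000141). Gstk1, the kappa class enzyme of mitochondria and peroxisomes, was lower in 1B than in chow, at -0.50 (adjusted p = 0.0431), and this was lost without 1B mouse 3 (adjusted p = 0.0819) and in other fits without 1 mouse, up to an adjusted p of 0.203 without chow mouse 3. Gstm5 of the mu class was higher than chow in HFD by 0.72 (adjusted p = 0.0276) and in HFD+1B by 0.65 (adjusted p = 0.0241), calls lost among others without chow mouse 4 (adjusted p = 0.101 and 0.104). Gsto1, an omega class enzyme with thioltransferase activity, was lower than chow in HFD (-0.58, adjusted p = 0.00385) and HFD+1B (-0.79, adjusted p = 6.16e-05). Mgst3, a microsomal enzyme with peroxidase activity, was higher than chow in HFD by 0.78 (adjusted p = 0.0347) and in HFD+1B by 1.02 (adjusted p = 0.00281), whereas its other probe gave 0.18 in HFD+1B (adjusted p = 0.485). The Mgst3 call in HFD was lost in fits without 1 mouse, up to an adjusted p of 0.0912 without HFD mouse 4, and that of Gsta1 in HFD+1B minus chow up to 0.0855 without chow mouse 2.

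The glutathione pathway around the members was described by lists. Of all genes, 8.89% were called higher and 7.41% lower in HFD+1B minus chow. Of 7 genes of glutathione synthesis and cystine supply, 1 rose and 2 fell in HFD+1B compared with chow. Slc3a2, the heavy chain of the cystine transporter, was higher by 0.94 (adjusted p = 6.17e-05), Cth, which makes cysteine from cystathionine, was lower, at -1.69 (adjusted p = 0.000189), and Gclm, the modifier subunit of the rate-limiting ligase, was lower, at -0.71 (adjusted p = 0.00152). Of 11 genes of glutathione turnover, 3 were higher and 2 lower. Chac1, which degrades glutathione, was higher by 2.02 (adjusted p = 0.000147), its relative Chac2 was lower, at -0.94 (adjusted p = 1.22e-05), and the cyclotransferase Ggct was higher by 0.82 (adjusted p = 0.000247). Of 11 glutathione peroxidases, reductase, and glutaredoxins, 3 were higher and 1 lower, with Gpx3 at 2.28 (adjusted p = 2.31e-05), Gpx4 at 0.72 (adjusted p = 0.00241), and Glrx at 0.55 (adjusted p = 0.0171). Of 8 conjugate exporters, 0 were higher and 2 lower, Abcc2, the canalicular pump for glutathione conjugates, at -0.60 (adjusted p = 0.00178), and Abcc6 at -0.40 (adjusted p = 0.0213).

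Among 17 regulators of this gene family 4 rose and 5 fell in HFD+1B compared with chow, against 8.89% higher and 7.41% lower of all genes. Maff, a small partner of NRF2, was higher by 1.65 (adjusted p = 1.76e-05), Nr1i3, which encodes CAR, was lower, at -1.56 (adjusted p = 5.33e-06), and Ppara, a lipid-sensing nuclear receptor, was lower, at -1.09 (adjusted p = 0.00645). Nr1i3 was also lower in 1B than in chow, at -0.86 (adjusted p = 0.00728), and in HFD it was -0.20 (adjusted p = 0.513). Of 13 NRF2 targets outside the family, 7 were higher and 2 lower in HFD+1B, with Pgd of the pentose phosphate pathway at 2.10 (adjusted p = 2.3e-05), the carbonyl reductase Cbr3 at 1.39 (adjusted p = 0.00157), and the growth inhibitor Osgin1 at -1.63 (adjusted p = 0.00417). Of 13 measured CAR and PXR targets, 7 were lower and 2 higher in HFD, and 8 lower and 2 higher in HFD+1B. In HFD 6.48% of all genes were lower and 4.50% higher. The cytochromes Cyp2c54, Cyp2c37, and Cyp2c29 were lower in HFD+1B at -3.23, -2.49, and -2.39 (adjusted p = 3.2e-05, 8.48e-05, and 6.35e-06). Their mean log2 ratios were 1.21, 1.29, and 1.12 in chow and 0.81, 0.80, and 1.02 in 1B. In HFD they were -0.87, -0.38, and -1.08, and in HFD+1B -2.02, -1.20, and -1.27.

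**Figure D4:**
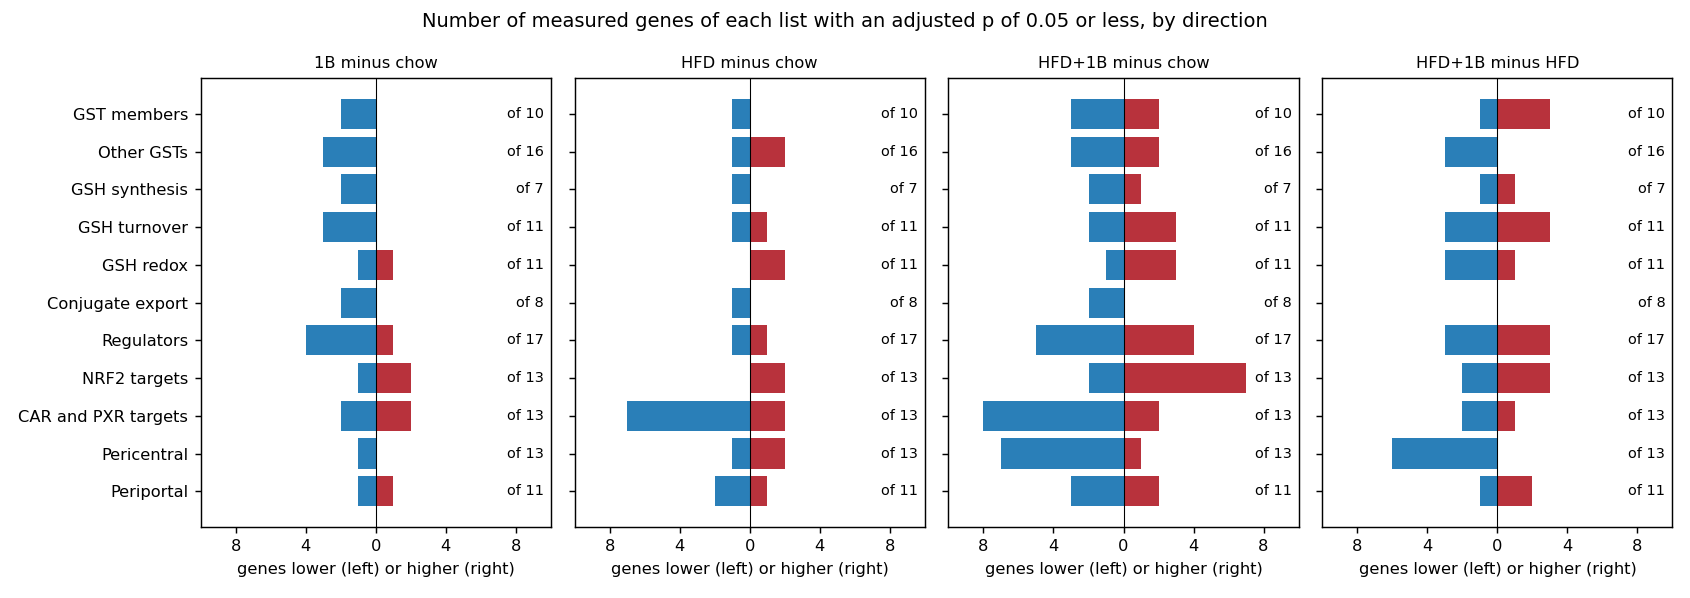
Number of genes (horizontal axis) called higher (red, to the right) and lower (blue, to the left) of each list in 4 comparisons, with the number of measured genes at the right edge of each panel. The CAR and PXR targets had 7 of 13 lower in HFD and 8 of 13 lower in HFD+1B, and the pericentral genes 7 of 13 lower in HFD+1B.

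Liver zonation and cell type markers were counted in the same comparisons. Of all genes, 8.89% were called higher and 7.41% lower in HFD+1B minus chow. The shares were 4.50% and 6.48% in HFD minus chow, and 2.09% and 2.04% in 1B minus chow. Of 13 pericentral genes, 1 rose and 7 fell in HFD+1B compared with chow, with a median of -0.79, among them Cyp1a2 at -2.68 (adjusted p = 4.4e-07) and Cyp7a1, the rate-limiting enzyme of bile acid synthesis, at -2.11 (adjusted p = 2.36e-05). Of 11 periportal genes, 2 were higher and 3 lower, with Sds at 2.10 (adjusted p = 0.00048) and Etnppl at -2.03 (adjusted p = 0.00077). Hepatocyte markers were called higher for 2 and lower for 1 of 11 in HFD+1B minus chow, and higher for 1 and lower for 0 in 1B minus chow, beside the alpha class results. Their mean log2 ratio ranged from 0.0094 to 0.22 in chow, from 0.17 to 0.32 in 1B, from -0.28 to -0.02 in HFD, and from -0.04 to 0.50 in HFD+1B. Stellate cell markers were higher for 9 of 10 in HFD+1B and for 6 of 10 in HFD than in chow, beside the Gstm2, Gstm3, and Gstp1 results, and their mean ranged from -0.82 to -0.53 in chow, from -0.60 to -0.46 in 1B, from -0.0043 to 0.30 in HFD, and from -0.28 to 0.82 in HFD+1B. Macrophage markers were higher for 3 of 9 in HFD and 2 of 9 in HFD+1B, with 0 lower in either, neutrophil markers for 1 and 2 of 10, with 0 and 1 lower, endothelial markers for 2 and 2 of 10, with 0 and 3 lower, cholangiocyte markers for 0 and 1 of 8, with 2 and 0 lower, and erythroid markers for 0 and 1 of 5. The part of these cells in the results of the members was not tested.

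The promoters of the members were searched for the core of the antioxidant response element, TGACNNNGC, on both strands, since NRF2 is a known regulator of the family. RefSeq start sites of GRCm38.p6 gave 13 promoters for 9 of the members and none for Gsta4, each running from 250 bases before to 50 bases after the start. The core was in 1 of the 13, that of Gsta3, and in 12.4% of all 32851 promoters. The 250 bases before the start are shown for the members whose called differences against chow remained in all fits without 1 mouse, 5′ to 3′ on the strand of the gene, with the core in capitals where it occurs.
Gsta3, chr1:21240335-21240584, plus strand: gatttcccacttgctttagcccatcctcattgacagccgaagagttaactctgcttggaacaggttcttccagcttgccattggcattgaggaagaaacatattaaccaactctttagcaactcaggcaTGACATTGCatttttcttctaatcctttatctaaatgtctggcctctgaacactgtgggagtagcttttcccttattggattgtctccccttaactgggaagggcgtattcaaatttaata
Gstm2, chr3:107986421-107986670, minus strand: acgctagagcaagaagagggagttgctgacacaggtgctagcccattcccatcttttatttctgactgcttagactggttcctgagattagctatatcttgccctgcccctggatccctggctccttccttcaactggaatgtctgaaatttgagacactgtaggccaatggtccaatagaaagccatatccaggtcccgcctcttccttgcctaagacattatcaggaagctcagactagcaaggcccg
Gstp1, chr19:4037913-4038162, minus strand: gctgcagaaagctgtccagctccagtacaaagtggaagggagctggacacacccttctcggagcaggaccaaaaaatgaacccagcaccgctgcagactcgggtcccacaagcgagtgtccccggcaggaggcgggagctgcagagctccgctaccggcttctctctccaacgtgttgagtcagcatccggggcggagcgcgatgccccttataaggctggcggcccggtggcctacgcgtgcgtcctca
The match in Gsta3 begins at position -121 relative to the start. It is a match of letters in this window only, as is the lack of one in the other 12. Forms of the element that differ from this pattern were not searched. The Gstp1 sequence above holds tgagtcagc, which differs from the pattern by 1 base and was not counted.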

How the data were processed

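RNA of 17 mouse livers was hybridized by the authors against a common reference on 2-colour Agilent arrays without dye swap. Agilent Feature Extraction, named in the labels, gave the deposited spot intensity values, and its version, 11.5.1.1, is that in the header of the scanner output. The authors also deposited a table of log2 ratios, which equals the log2 of the processed Cy5 over Cy3 signals to within 2.74e-06. It was used for gene symbols and as an alternative.

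Median intensities were corrected with normexp (offset 50) and normalized by loess within arrays in R 4.3.3 with limma 3.58.1, with control and outlier spots at weight 0. Outlier spots (3424 missing values) were left out and spots of a probe averaged. Probes well above background in Cy5 on at least 4 arrays were tested (34664 of 41174). Group means were fitted over all 17 arrays, and p-values were adjusted by Benjamini-Hochberg over all probes. The number of arrays limits the precision. Labels do not say whether mice shared a cage or litter. Only the group fit was tested on simulated data, with independent noise and planted changes larger than any member difference. Background correction, normalization and the removal of outlier spots were not tested in this way.

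The members and gene lists were chosen with earlier results of these data known. Named besides the members were other glutathione S-transferases called against chow, and, of the genes called in HFD+1B minus chow, the 3 with the largest absolute difference in each pathway list and 2 in each zonation list. Lcn2, Saa1 and the probes printed were picked after their values were seen. Alternatives were other background corrections, normalizations, probe filters, slide or replicate number as a block, the compared groups alone, analysis of variance with Tukey's test, a fold rule, and leaving out each mouse.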

Additional observations from a re-analysis of the deposited data

Results flagged for a closer look

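Single mice stood apart from the rest of their group, by the gap to the nearest mouse as a share of the group's range, in 11 of 152 groups of values examined, where chance alone gives about 1 in 20 (7.6). Of the 38 groups of member values 4 were among them. Gsta2 in HFD mouse 4 (0.01, next 0.23) had a share of 0.867, Gsta3 in HFD+1B mouse 4 (-0.69, next -0.12) 0.741, Gsta4 in 1B mouse 3 (0.07, next 0.24) 0.835, and Gstm6 in HFD mouse 1 (-0.63, next -0.18) 0.908. Gsta1 was also lowest in HFD+1B mouse 4, with a share of 0.777. The other shares were 0.834 for Gstm5 in 1B mouse 4, 0.875 for Gclm in HFD mouse 1, 0.887 for Ggct in chow mouse 2, 0.929 for Abcc6 in 1B mouse 3, 0.896 for Cyp2c37 in chow mouse 1, and 0.712 for Sds in HFD+1B mouse 2.

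The ethanol effect differed between the diets in the limma interaction for 5 of the named genes outside the members. The interaction was called higher for 2.67% and lower for 1.72% of all genes. These 5 genes had been named for a large difference in HFD+1B minus chow, and both groups also enter the interaction. The count is therefore not independent of that choice. Ethanol on the high-fat diet minus ethanol on chow was 0.94 for Slc3a2 (adjusted p = 0.0117), 1.81 for Chac1 (adjusted p = 0.0271), 0.89 for Abcc2 (adjusted p = 0.011), -1.77 for Cyp7a1 (adjusted p = 0.0126), and 2.46 for Sds (adjusted p = 0.0152).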

How the results depend on the processing

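Over the member differences, recomputed under each alternative, a called difference kept its call in 390 instances and lost it in 90, a difference not called gained a call in 23 and did not in 1397, and 0 called differences changed sign. Median centring in place of loess gave 2 members called in HFD minus chow and 1 in the interaction. It moved the median of all genes by 0.13 in HFD+1B minus HFD and by 0.15 in the interaction, and turned the split of all genes called to 3680 higher and 449 lower in HFD+1B minus HFD (2124 and 1625 with loess), 276 and 1743 in HFD minus chow (871 and 1255), 1602 and 815 in HFD+1B minus chow (1721 and 1434), 208 and 310 in 1B minus chow (404 and 395), 1260 and 407 in HFD+1B minus 1B (1215 and 998), and 1106 and 79 in the interaction (517 and 333). Cy5 alone gave 0 members in 1B minus chow, 3 in HFD+1B minus chow, 2 in HFD+1B minus HFD, and 1 in HFD+1B minus 1B. Over all genes Cy5 alone called 80 higher and 100 lower in 1B minus chow, and 591 and 559 in HFD+1B minus chow. It called 791 and 416 in HFD+1B minus HFD, and 339 and 252 in HFD+1B minus 1B. Each of these counts was smaller than in the main fit. Outlier spots kept, or the slide as a block, gave 2 in HFD minus chow, and outlier spots kept gave 5 in HFD+1B minus HFD. With outlier spots kept, all genes called were 916 higher and 1292 lower in HFD minus chow, and 2144 and 1658 in HFD+1B minus HFD. With the slide as a block they were 1088 and 1190 in HFD minus chow. The groups compared alone, or analysis of variance with Tukey's test, gave 2 in HFD+1B minus HFD, and the latter 2 of 3 in HFD+1B minus 1B. The groups compared alone called 1453 higher and 1087 lower of all genes in HFD+1B minus HFD. Tukey's test was run on the members and the named genes only. The authors' table, or no filter on dim probes, gave 3 of 4 in HFD+1B minus HFD and 2 of 3 in HFD+1B minus 1B, and no background correction, or an offset of 10, gave 4 of 5 in HFD+1B minus chow. All genes called with the authors' table were 2133 higher and 1743 lower in HFD+1B minus HFD, and 906 and 740 in HFD+1B minus 1B. Without the filter they were 2026 and 1550, and 1146 and 980. In HFD+1B minus chow they were 1726 and 1400 without background correction, and 1587 and 1290 with an offset of 10. The fold rule gave 0 in 1B minus chow, 2 in HFD+1B minus chow, 0 in HFD+1B minus HFD, and 1 in HFD+1B minus 1B. The cause of these changes was not tested. Without 1 mouse the members called were 1 to 2 in 1B minus chow, 1 to 2 in HFD minus chow, 3 to 5 in HFD+1B minus chow, 1 to 4 in HFD+1B minus HFD, and 0 to 1 in the interaction. Where 1 member was called in HFD+1B minus HFD, all genes called were 2014 higher and 1539 lower without HFD mouse 1. They were 1459 and 1028 without HFD mouse 4, and 2040 and 1634 without HFD+1B mouse 3. Same-numbered mice correlated in their deviations at -0.126 to 0.479 (median 0.179, 16 of 24 pairs over 0.1), mice on the same slide at a median of 0.195 (16 of 21 over 0.1), and mice sharing neither at a median of -0.049 (16 of 77 over 0.1). The labels give no shared origin, so the numbers were not taken to pair the mice, although many same-numbered mice deviated together. Same-numbered mice often shared a slide, so the number and the slide cannot be told apart for them. The main fit holds neither as a block and treats the mice as independent, which its p-values do not correct for. The replicate block gave 2 members in HFD minus chow, 2 in HFD+1B minus HFD, and 2 of 3 in HFD+1B minus 1B, where Gsta2 was lost. All genes called with it were 1397 higher and 1582 lower, 2703 and 2378, and 1362 and 1272 in the same order.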
